A study of Mus musculus with 20 samples.

Results

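The loss of miR-34a was examined in the hippocampus of Tg-SwDI mice, a model of brain amyloid disease, by comparing 5 miR-34a KO Tg-SwDI libraries (labelled TgSwDI miR34a-/-, numbers 1, 2, 3, 5 and 8) with 5 miR-34a WT Tg-SwDI libraries (labelled TgSwDI miR34a+/+, numbers 3 to 7). These are 10 of the 20 RNA-seq libraries of the series, each from the left hippocampus of a separate female mouse about a year old. The other 10 libraries are from Non-Tg littermates, 5 KO and 5 WT. All 10 Tg-SwDI mice carried human APP with the Swedish, Dutch and Iowa mutations under the Thy1 promoter, which drives it in neurons, on a C57BL/6 background. In the KO mice the Mir34a gene was deleted from conception and in every cell type, and the mice were perfused after a series of behavioural tests. Of 39056 genes in the count table, 16107 passed a filter on low counts and were tested. The interferon-stimulated genes and the disease-associated microglia (DAM) genes that the study centred on are given as counts, and the genes described are mainly the others.

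MicroRNAs guide silencing complexes to messenger RNAs that pair with the bases next to the 5' end of the microRNA, called the seed, mostly in the 3' untranslated region (3'UTR), and lower the amount of those messages or their translation. MiR-34a is transcribed in response to p53 and is known for repressing cell cycle and survival genes. In the brain it is present in neurons and glia, and it shares its seed with other members of the miR-34 and miR-449 family. Tg-SwDI mice deposit amyloid in the brain tissue and along its small vessels, where microglia and astrocytes gather.

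Mature sequences of family members are shown because the seed defines which genes can pair with miR-34a and which other microRNAs can share its sites. They are from RefSeq on the mm10 build, 5' to 3', with the seed (bases 2 to 8) in capitals, and miR-34a-5p lies at chr4:150068473-150068494 on the + strand. MiR-34b-5p lies on chromosome 9 and the miR-449 members shown here on chromosome 13. The set is not the whole family, since no miR-34c-5p entry was matched in the reference used here, and miR-449b is not shown either.
miR-34a-5p: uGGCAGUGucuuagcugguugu
miR-34b-5p: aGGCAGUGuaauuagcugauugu
miR-449a-5p: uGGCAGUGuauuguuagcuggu
miR-449c-5p: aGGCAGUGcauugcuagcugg
miR-34a-3p: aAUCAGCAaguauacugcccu
All of these 5p sequences hold the seed GGCAGUG, whereas the 3p strand of miR-34a, from the other arm of the same hairpin, has a different one. The deletion removes both arms of miR-34a and leaves the genes of the other family members in place.

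The next sequences are sites in the 3'UTRs of genes that differed between KO and WT Tg-SwDI mice, shown because they match the miR-34a seed with the full 8 bases. Each is read on the strand of its gene from mm10, 5' to 3', ending with the match to bases 2 to 8 of miR-34a-5p followed by an A, in capitals. These are the 6 differing genes with such a site that had the smallest adjusted p outside the interferon and DAM genes, and the sites lie, in the order printed, at chr11:101459336-101459357, chr6:71389365-71389386, chr3:89147356-89147377, chr13:51421464-51421485, chr1:36422737-36422758 and chr3:115125598-115125619.
Vat1: cctccccagtccaaCACTGCCA
Rmnd5a: agtcttaaactcctCACTGCCA
Hcn3: aggtactgtgtatcCACTGCCA
S1pr3: tggtgtatataggtCACTGCCA
Lman2l: gttgagatgactctCACTGCCA
Olfm3: tcatgtttgaaagtCACTGCCA
Vat1, Hcn3 and S1pr3 were higher in KO mice and Rmnd5a, Lman2l and Olfm3 were lower, so these sites were found at genes of both directions.

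Read counts on genes summed to 19549622 to 20953478 in the 10 libraries. Levels are given in CPM, a gene's read count relative to the library total after scaling by TMM factors. The 29 dentate gyrus and CA field markers summed to 2012 to 2140 CPM in WT and 1896 to 2114 CPM in KO mice, and Prox1, a dentate granule cell marker, was at 99.6 CPM or more in every library. Choroid plexus markers, led by Ttr, summed to 5109 to 5847 CPM in 4 WT mice and 3407 to 5711 CPM in 4 KO mice, but to 409 CPM in WT replicate 7 and 423 CPM in KO replicate 2. KO replicate 8 stood apart in another way, with 14.6% of its counts on mitochondrial genes against 7.19% to 8.76% in the other 9 libraries. Mean mitochondrial shares were 9.64% ± 2.76 for KO and 7.64% ± 0.446 for WT mice (SD, n = 5 each) (p = 0.0159, exact two-sided permutation test, adjusted over 4 library measures to 0.0318). The 20 highest genes took 13.2% ± 2.70 of counts in KO and 11.1% ± 0.438 in WT mice (SD, n = 5 each) (p = 0.0159, adjusted 0.0318, same exact test), and the smallest p such a test can give is 0.00794. Without WT replicates 3, 4, 6 and 7 in turn, unadjusted p was 0.103, 0.0714, 0.0952 and 0.103 for the mitochondrial share (exact permutation test) and 0.0873, 0.0635, 0.0794 and 0.0794 for the 20 highest genes. Without KO replicate 8, the differences were 0.774 and 0.882 percentage points, both smaller than with all mice. The share on ribosomal protein genes (exact permutation p = 0.484, adjusted 0.484) and the number of genes with a count (exact permutation p = 0.0873, adjusted 0.116, but an unadjusted 0.0238 without KO replicate 1) did not pass. Mir34a has no row of its own in the count table and was not analysed here, so the deletion was not checked on the microRNA itself.

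Between KO and WT Tg-SwDI mice, 320 genes were differentially expressed (DEGs), which is 1.99% of the genes tested, with 239 higher in KO (1.48%) and 81 lower (0.503%). DEGs were called with edgeR's quasi-likelihood test on all 20 libraries at an adjusted p (Benjamini-Hochberg, over all 16107 genes) under 0.05, and p-values measure the spread between mice. With library size alone as the scaling, 102 were higher and 115 lower. Over all genes tested, 50.7% had a log2 fold change above 0 and 18.9% an unadjusted edgeR p under 0.05. Counts of such genes in the lists below are to be read beside these shares. Interferon and DAM genes made up 55 of the higher DEGs, and 265 DEGs (184 higher, 81 lower) were on neither list. In 200 DEGs, 173 of them on neither list, the 5 KO and 5 WT libraries did not overlap, against 509 genes (3.16%; 2.04% higher and 1.12% lower) of all those tested. The higher DEGs on neither list had a median log2 fold change of 0.36 (range 0.17 to 2.35) and the lower ones of -0.24 (range -0.65 to -0.16), so most changes were small. Among these called genes the higher ones had the larger median change. Their median level was 30.5 CPM against 59.7 CPM for the lower ones, and the part of level was not tested.

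**Figure D1:**
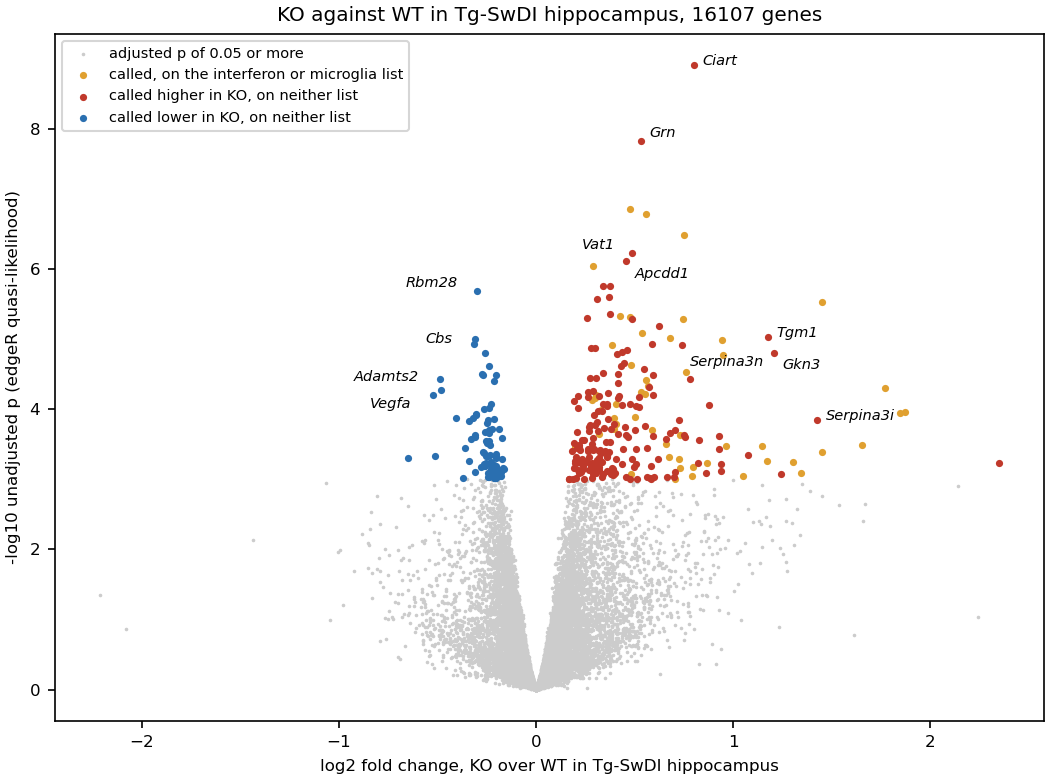
Each point is 1 of the 16107 genes tested, with the log2 fold change of KO over WT in Tg-SwDI hippocampus on the x axis and -log10 of the unadjusted edgeR p on the y axis. Red (184) and blue (81) points are DEGs on neither list and yellow points (55) are DEGs on the interferon or DAM list, and Ciart has the smallest p of all genes.

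The count depended on single libraries. It was 169 without both libraries low in choroid plexus markers and 323 without KO replicate 8. It fell to 78 without WT replicate 7, 133 without WT replicate 3, 124 without WT replicate 5, 189 without WT replicate 6, 210 without KO replicate 3, 206 without KO Non-Tg replicate 4 and 199 without KO Non-Tg replicate 8, and it was 701 without KO replicate 2. The number of DEGs that stayed called with each of the 10 Tg-SwDI libraries left out was 67, of which 48 were on neither list. Below, a gene that lost its call in this way is given with the libraries and the adjusted p without them, and WT and KO with a replicate number stand for Tg-SwDI mice unless Non-Tg is written. Fitted with the 10 Tg-SwDI libraries alone, 58 genes were called, and of 76 DEGs named below that were followed through the alternative fits, 49 lost their call (adjusted p of 0.0594 to 0.186). Those that kept it were Ciart, Dbp, Bhlhe41, Grn, Ctsb, Trem2, Axl, Csf1r, Ccl6, Tgfb1, Cd37, Gpr65, Cd44, Serpina3i, Tgm1, Gkn3, Notch3, Ltbp4, Tgfbr2, Apcdd1, Vat1, Gpx1, Gnai2, Ip6k3, Rbm28, Cbs and Myef2. Without both libraries low in choroid plexus markers, 30 of the 76 lost their call (adjusted p of 0.05 to 0.142), namely Ctsa, Man2b1, Ccl3, Ccl6, Cxcl13, Tgfb1, Gpr65, Dock2, H2-Oa, Pdcd1, S1pr3, Srgn, Serpina3i, Serpinf2, Serpini1, Notch3, Ltbp4, Tgfbr2, Gabra2, Olfm3, Adamts2, Kcnh3, Cspg5, mt-Nd3, Hsp90aa1, Hsph1, Ip6k3, Gm43951, Myo1e and Fbxo6. A value in brackets directly after a gene is its log2 fold change of KO over WT in Tg-SwDI mice.

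The gene with the smallest p was a clock gene. Ciart (ENSMUSG00000038550, chr3:95878503-95882251), a repressor of the CLOCK and BMAL1 complex that drives daily rhythms, was at 11.1, 9.13, 8.89, 11.1 and 10.1 CPM in WT and 15.9, 18.2, 17.3, 17 and 19.3 CPM in KO mice. Every KO mouse lay well above every WT mouse, and the means were 10.1 ± 1.04 and 17.5 ± 1.28 CPM (SD, n = 5), a 1.74-fold difference (log2 fold change 0.80, SE 0.09, adjusted p = 1.99e-05). Dbp (ENSMUSG00000059824, chr7:45705088-45710203), a transcription factor whose daily rhythm is set directly by the clock, was at 59.3, 46.9, 49.1, 49.96 and 45.6 CPM in WT and 64.7, 66.4, 65.8, 60.7 and 67.1 CPM in KO mice (log2 fold change 0.37, SE 0.06, adjusted p = 0.00333). Bhlhe41 (ENSMUSG00000030256, chr6:145858243-145865558), which represses clock genes and is also found in microglia, was at 66, 65.4, 66.4, 70.2 and 64.3 CPM in WT and 79.3, 84.3, 85.9, 73.2 and 88.9 CPM in KO mice (log2 fold change 0.31, SE 0.05, adjusted p = 0.00335). For both, the highest WT mouse lay below the lowest KO mouse. All 3 calls held with each Tg-SwDI library left out and with both libraries low in choroid plexus markers left out. Of 24 clock and clock output genes tested, these 3 were called (12.5%, against 1.99% of all genes), and the median log2 fold change of the list was 0.10 against 0.0026 for all genes. Per1, a core clock repressor, had a log2 fold change of 0.42 (adjusted p = 0.0688) and Nr1d1, which represses Arntl, one of 0.36 (adjusted p = 0.235). Clock and Arntl, which encode the activating complex, were at -0.11 (adjusted p = 0.269) and -0.13 (adjusted p = 0.421). The hour at which each mouse was killed is not given in the sources used here, and time of day and genotype cannot be told apart for these genes. In Non-Tg mice the log2 fold change was 0.10 for Ciart (adjusted p = 0.854), and the difference between the 2 KO effects passed the test for Ciart (0.70, SE 0.12, adjusted p = 0.0146) but not for Dbp (adjusted p = 0.105) or Bhlhe41 (adjusted p = 0.139).

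**Figure D2:**
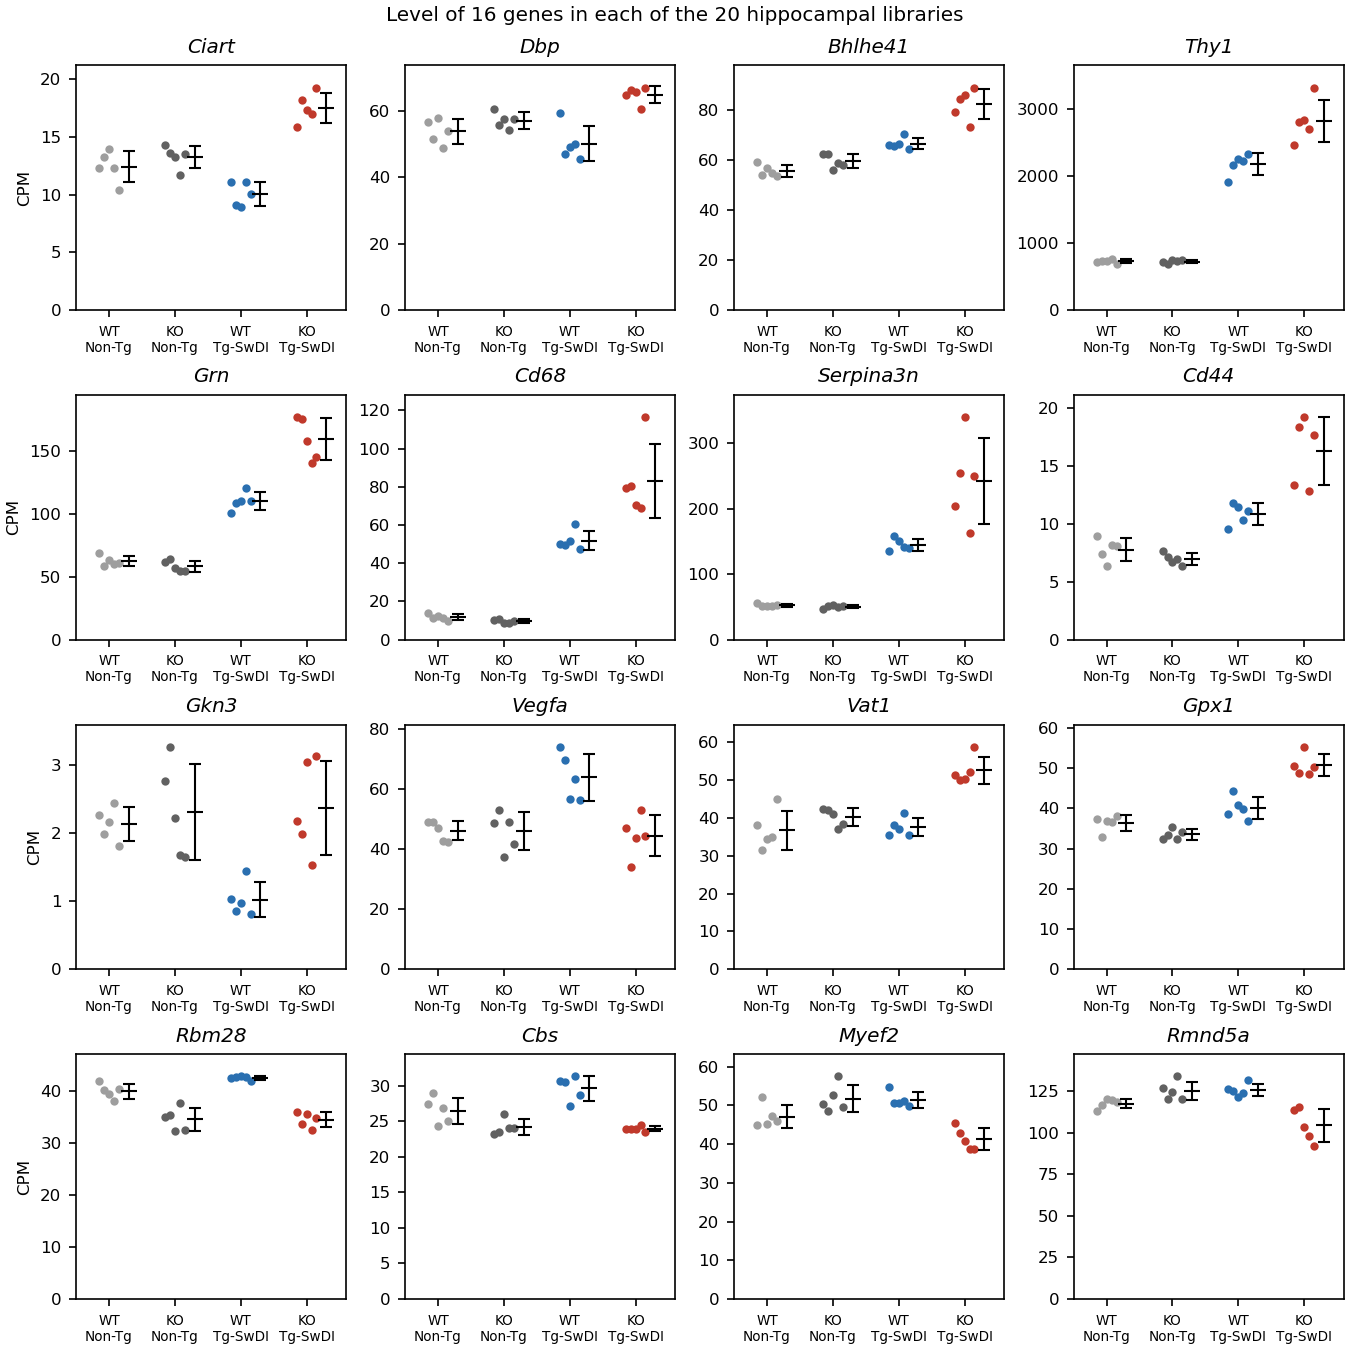
CPM of 16 genes in every library, with 1 panel per gene and a y axis that starts at 0. Each point is 1 mouse, and the bar beside each group gives its mean and SD over 5 mice. Ciart, Dbp, Bhlhe41, Grn, Vat1 and Gpx1 lie higher in every KO Tg-SwDI mouse than in any WT Tg-SwDI mouse, whereas Vegfa, Rbm28, Cbs, Myef2 and Rmnd5a lie lower.

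Apart from the interferon and DAM lists, lysosomal genes were the list with the most DEGs. Lysosomes break down proteins, sugars and lipids taken up or made by the cell. Of 55 hydrolases and membrane proteins tested, 12 were called, all higher (21.8%), and 50 had a log2 fold change above 0, with a median of 0.12 in Tg-SwDI mice against -0.12 in Non-Tg mice. Grn (ENSMUSG00000034708, chr11:102430315-102437048), which encodes the secreted and lysosomal protein progranulin, was at 100.2, 108, 110.4, 120.0 and 110.4 CPM in WT and 177, 175, 157, 140.4 and 145 CPM in KO mice. All KO values were above all WT values, with means of 109.8 ± 7.08 and 159 ± 16.7 CPM (SD, n = 5), a 1.45-fold difference (log2 fold change 0.53, SE 0.07, adjusted p = 0.000121). Cd68 (ENSMUSG00000018774, chr11:69664213-69666153), a glycoprotein of macrophage lysosomes, was at 50.1, 49.6, 51.4, 60.3 and 47.6 CPM in WT and 79.2, 80.5, 70.4, 68.7 and 116 CPM in KO mice (log2 fold change 0.68, SE 0.12, adjusted p = 0.00635). KO replicate 8 was the highest, and the other 4 KO mice also lay above the WT mice. Cd68 is also on the interferon or DAM list. Ctsa, the carboxypeptidase that protects other lysosomal enzymes (log2 change 0.22, SE 0.05, adjusted p = 0.0173), and Man2b1, the lysosomal alpha-mannosidase (log2 change 0.31, SE 0.07, adjusted p = 0.0183), rose by less, and KO replicate 5 overlapped the WT mice for Man2b1. Pld4 (log2 fold change 0.45), Laptm5 (0.44), Galns (0.34), Gusb (0.29), Arsa (0.25), Lgmn (0.21) and Plbd2 (0.19) were also called, among them the enzymes that remove sulphate groups from keratan sulphate (Galns) and sulphatide (Arsa). Ctsb, a lysosomal cysteine protease on the DAM list, went from 758 ± 23.9 to 927 ± 57.9 CPM (SD, n = 5). Of 18 subunits of the vacuolar ATPase, the pump that acidifies lysosomes, edgeR called 0 and DESeq2 0, with an unadjusted p under 0.05 in 1 higher and 2 lower subunits. None of the 8 microglia markers, led by Cx3cr1, was at 0. Their sums were 763 to 904.1 CPM in WT and 904.2 to 1240 CPM in KO mice, so the groups only just separated. KO replicate 8, the highest for Cd68, had the lowest sum of the KO mice, 904.2 CPM. These markers include Csf1r and Itgam, which were DEGs, and their part in the results was not tested. In bulk tissue, a change in the number of cells of a type and a change in RNA per cell cannot be told apart. The list count was 3 without both libraries low in choroid plexus markers, 2 with library size alone, 4 without WT replicate 3, 3 without WT replicate 5, 2 without WT replicate 7 and 7 without KO replicate 3. Ctsa was not called when any single one of WT replicates 3 and 7 was left out (adjusted p of 0.0536 to 0.0684). Man2b1 was not called when any single one of WT replicates 5 and 7 was left out (adjusted p of 0.0534 to 0.069).

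Some genes on the lists of microglial signalling and immune receptor genes were higher as well. Of 50 genes of microglial signalling and transcription, 6 were called, all higher (12%), 49 lay above 0, and the median log2 fold change was 0.29. Rela (ENSMUSG00000024927, chr19:5637483-5648130), the p65 subunit of NF-kB, was at 25.9, 26.2, 27.5, 28.6 and 27 CPM in WT and 32.9, 34.1, 31.5, 32.5 and 43.6 CPM in KO mice (log2 fold change 0.37, SE 0.08, adjusted p = 0.0144), with KO replicate 8 far above the rest. Dock2, which activates Rac in leukocytes, was at 10.7 to 13.1 CPM in WT and 14 to 19.9 CPM in KO mice (log2 change 0.46, SE 0.11, adjusted p = 0.0267). These ranges did not overlap, and Sall1 (0.27), a transcription factor of microglial identity, and Bhlhe41 were also called. Of 56 Fc receptors, integrins and other immune receptors, 3 were called, all higher (5.36%), with a median of 0.32. They were Cd37, a leukocyte tetraspanin (log2 change 0.55, SE 0.11, adjusted p = 0.00995), Fcer1g, the signalling chain shared by Fc receptors (log2 change 0.57, SE 0.11, adjusted p = 0.0132), and Gpr65, a proton-sensing receptor (log2 change 0.73, SE 0.16, adjusted p = 0.0215). The microglia marker sums given above were also higher in KO mice, but KO replicate 8, the highest for Rela, had the lowest KO sum. The part of these markers was not tested. Without both libraries low in choroid plexus markers, the list counts were 2 of 50 and 2 of 56. The first was 3 without WT replicate 3 or 5 and 2 without WT replicate 7, and the second was 1 without WT replicate 7 and 6 without KO replicate 5 or 8. Dock2 was not called when any single one of WT replicates 3, 5, 6 and 7 was left out (adjusted p of 0.051 to 0.085). Fcer1g was not called without WT replicate 7 (adjusted p of 0.0501). Gpr65 was not called when any single one of WT replicates 3 and 7 was left out (adjusted p of 0.0633 to 0.0675).

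Among 43 chemokines, cytokines and their receptors, 4 were called, all higher (9.30%), with a median of 0.19. Tgfb1 (ENSMUSG00000002603, chr7:25687002-25705077), a cytokine that microglia both make and depend on, was at 15.7, 17.3, 19, 21.8 and 16.7 CPM in WT and 25.6, 28.6, 23.1, 23.2 and 29.6 CPM in KO mice (log2 fold change 0.52, SE 0.11, adjusted p = 0.0145). Ccl3 and Ccl6, chemokines for monocytes, were at 5.36 to 7.61 and 29.8 to 42.4 CPM in WT and 7.69 to 17.8 and 43.6 to 62.8 CPM in KO mice, with log2 fold changes of 0.93 (SE 0.22, adjusted p = 0.0342) and 0.59 (SE 0.13, adjusted p = 0.0253). For these 3 genes the groups did not overlap, and Ccl6 is also on the interferon or DAM list. Cxcl13, which attracts B cells, had the highest log2 fold change of all DEGs (log2 change 2.35, SE 0.56, adjusted p = 0.0411), at 0.376, 0.473, 0.196, 1.16 and 0.861 CPM in WT and 4.73, 1.41, 2.95, 6.15 and 0.385 CPM in KO mice, with KO replicate 8 among the WT mice. H2-Oa, a chain of the class II peptide-loading modulator, was at 1.22 to 2.32 CPM in WT and 2.36 to 3.03 CPM in KO mice (log2 change 0.76, SE 0.18, adjusted p = 0.0277), and it was the DEG of 9 class II genes, whose median was 0.65 in Tg-SwDI mice against -0.69 in Non-Tg mice. Pdcd1, which encodes the checkpoint receptor PD-1 of lymphocytes, was at 2.59 ± 0.690 and 4.37 ± 0.870 CPM (SD, n = 5; log2 change 0.75, SE 0.18, adjusted p = 0.0269). The 20 lymphocyte markers summed to 30.2 to 102 CPM in WT and 39.9 to 139 CPM in KO mice, with replicate 5 the highest of each group, and their part was not tested. Only 8 of the 20 passed the low-count filter. Cd3e, the marker chosen to define the list, was near 0, at 0.142 to 0.387 CPM in WT and 0.0522 to 0.237 CPM in KO mice. Of 21 complement genes outside C1q, edgeR called 0 and DESeq2 1, although 8 were higher at an unadjusted p under 0.05 and the median was 0.34. Of 13 border-associated macrophage and scavenger genes, edgeR and DESeq2 both called 0, with 6 higher at an unadjusted p under 0.05 and a median of 0.55. Without both libraries low in choroid plexus markers, 0 of the 43 chemokine and cytokine genes and 0 of the 9 class II genes were called by edgeR. The first count was 1 without WT replicate 3 or 5, 2 without WT replicate 6 or KO replicate 8 and 0 without WT replicate 7. Tgfb1 was not called without WT replicate 7 (adjusted p of 0.0585). Ccl3 was not called when any single one of WT replicates 3, 5, 6 and 7 and KO replicate 8 was left out (adjusted p of 0.059 to 0.0926). Ccl6 was not called when any single one of WT replicates 3, 5, 6 and 7 and KO replicate 8 was left out (adjusted p of 0.05 to 0.0796). Cxcl13 was not called when any single one of WT replicates 3, 4, 5 and 7, KO replicates 1, 3 and 5, WT Non-Tg replicate 4 and KO Non-Tg replicates 1, 4, 7 and 8 was left out (adjusted p of 0.0507 to 0.101). H2-Oa was not called when any single one of WT replicates 3, 6 and 7 and KO replicate 3 was left out (adjusted p of 0.0556 to 0.086). Pdcd1 was not called when any single one of WT replicates 3, 5 and 7 and KO replicate 1 was left out (adjusted p of 0.0501 to 0.085).

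**Figure D3:**
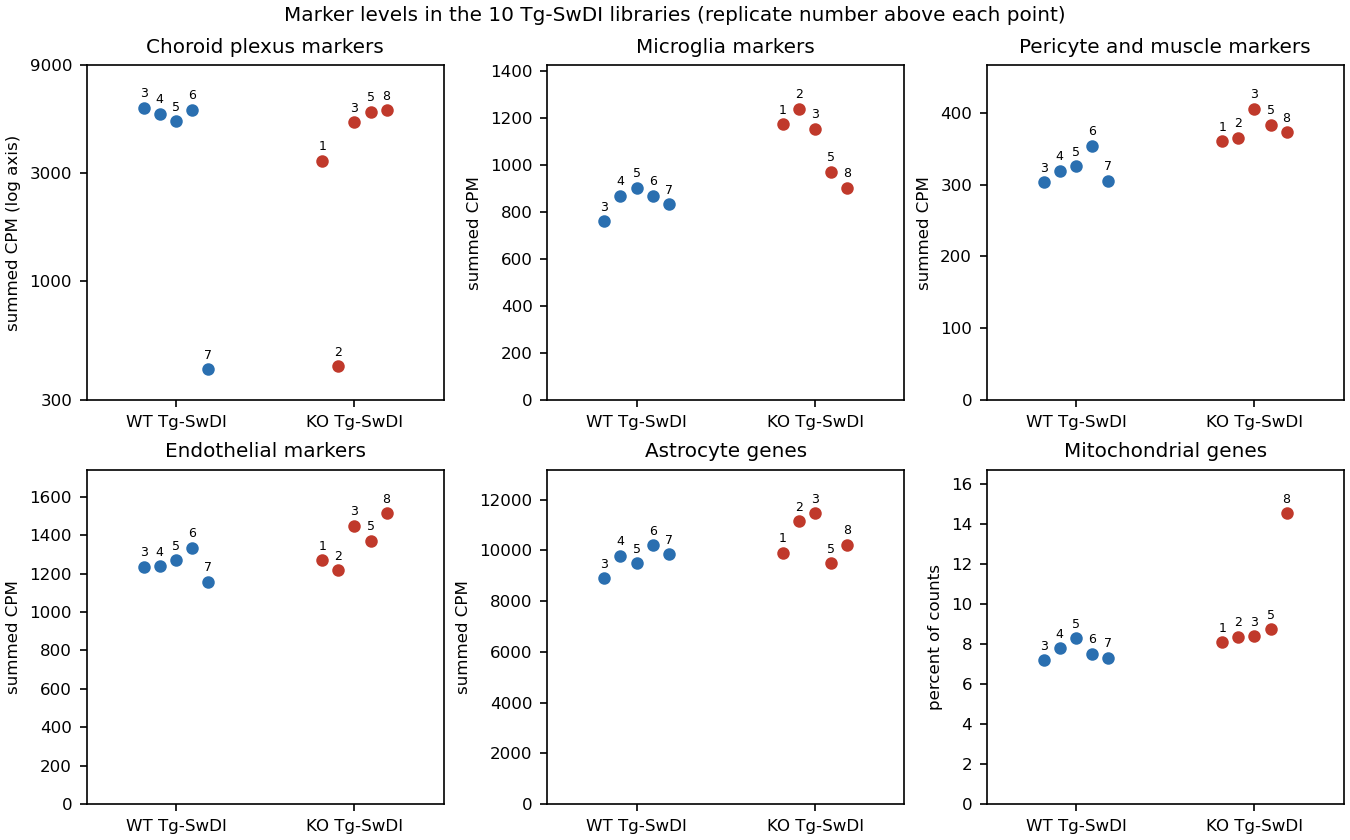
Summed CPM of marker genes of 5 cell types, and the percent of counts on mitochondrial genes, in the 10 Tg-SwDI libraries, with the replicate number above each point. The choroid plexus panel has a log axis and shows WT replicate 7 and KO replicate 2 far below the others, microglia and pericyte sums do not overlap between KO and WT mice, and KO replicate 8 is highest in mitochondrial counts.

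Astrocyte reactivity genes were higher in part. Of 39 astrocyte genes, 5 were called, all higher (12.8%), with a median of 0.21 in Tg-SwDI mice against -0.05 in Non-Tg mice. Serpina3n (ENSMUSG00000021091, chr12:104406729-104414329), a secreted serine protease inhibitor that reactive astrocytes make, was at 135, 158, 151, 141 and 139 CPM in WT and 204, 254, 339.8, 163 and 249.9 CPM in KO mice. The KO mice spread from near the WT range in replicate 5 to far above it in replicate 3, and every one lay above every WT mouse (log2 fold change 0.74, SE 0.12, adjusted p = 0.00654). Cd44 (ENSMUSG00000005087, chr2:102811141-102901665), the hyaluronan receptor, was at 9.53, 11.8, 11.5, 10.3 and 11.1 CPM in WT and 13.4, 18.4, 19.2, 12.8 and 17.7 CPM in KO mice (log2 fold change 0.59, SE 0.11, adjusted p = 0.00654), again with no overlap. S1pr3, a receptor for sphingosine 1-phosphate (log2 change 0.52, SE 0.11, adjusted p = 0.0168), Srgn, a proteoglycan core protein (log2 change 0.50, SE 0.12, adjusted p = 0.0253), and Gfap, the astrocyte filament protein (log2 fold change 0.51, adjusted p = 0.0412), were the others. For S1pr3 KO replicate 8 and for Srgn KO replicate 5 lay within the WT range. Vim, another filament protein, was at 0.55 (adjusted p = 0.0582), and Slc1a2 and Aldh1l1, general astrocyte genes, were at -0.03 and 0.03 (adjusted p = 0.792 and 0.881). The summed astrocyte genes overlapped between the groups (8911 to 10210 CPM in WT and 9501 to 11470 CPM in KO mice). The count was 2 without both libraries low in choroid plexus markers, 3 without WT replicate 3 or KO replicate 3 and 2 without WT replicate 7. S1pr3 was not called without WT replicate 7 (adjusted p of 0.0594). Srgn was not called when any single one of WT replicates 3 and 7 and KO replicate 3 was left out (adjusted p of 0.0532 to 0.0821).

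Of 21 serpin and protease genes, 4 were higher and 1 was lower (23.8% called). Besides Serpina3n, the higher ones were Serpina3i (log2 change 1.43, SE 0.32, adjusted p = 0.0215) and Tgm1, a transglutaminase (log2 change 1.18, SE 0.21, adjusted p = 0.00635), both under 6 CPM in all 10 libraries, and Serpinf2, the plasmin inhibitor (log2 change 0.86, SE 0.22, adjusted p = 0.0468). Serpinf2 was at 3.19, 3.88, 3.63, 3.33 and 2.97 CPM in WT and 4.59, 5.63, 11.5, 4.67 and 4.46 CPM in KO mice, where replicate 3 stood far above the other 4. Serpini1 (ENSMUSG00000027834, chr3:75557547-75643495), which encodes neuroserpin, the inhibitor of tissue plasminogen activator in neurons, went the other way, from 238, 216, 245, 218 and 260.3 CPM in WT to 199, 188, 196, 203 and 149.5 CPM in KO mice (log2 fold change -0.33, SE 0.08, adjusted p = 0.0289). All KO mice lay below all WT mice, with replicate 8 the lowest. The list count was 2 without WT replicate 3 or 5 and 3 without WT replicate 6, WT replicate 7 or KO replicate 3. Serpina3i was not called when any single one of WT replicates 3, 5 and 6 and KO replicate 3 was left out (adjusted p of 0.0509 to 0.0705). Serpinf2 was not called when any single one of WT replicates 3, 4, 5, 6 and 7, KO replicate 3, WT Non-Tg replicates 3, 4 and 6 and KO Non-Tg replicates 2, 4, 7 and 8 was left out (adjusted p of 0.0508 to 0.115). Serpini1 was not called when any single one of WT replicates 3, 5 and 7 was left out (adjusted p of 0.0675 to 0.0897). After correction for GC content and length, the adjusted p was 0.0677 for Serpinf2 and 0.112 for Serpini1.

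Of the vascular lists, all calls were higher, and Vegfa, on neither list, was lower. Of 31 endothelial and barrier genes, 2 were called, both higher (6.45%), and of 16 pericyte and smooth muscle genes 1 was (6.25%), with medians of 0.14 and 0.32. Gkn3, found in arterial endothelium in the brain (log2 change 1.21, SE 0.23, adjusted p = 0.00701), was low in level, and Ly6c1, an endothelial surface protein, was at 23.3, 27.2, 26.4, 23.7 and 21.8 CPM in WT and 31.7, 27.3, 38.5, 30.7 and 40.3 CPM in KO mice (log2 change 0.46, SE 0.09, adjusted p = 0.00701), with KO replicate 2 nearest to the WT mice. Notch3 (ENSMUSG00000038146, chr17:32120820-32166852), the Notch receptor of vascular smooth muscle and pericytes, was at 13.7, 11, 14.3, 15.8 and 12.6 CPM in WT and 19.9, 19.9, 20.2, 16.2 and 19.6 CPM in KO mice (log2 fold change 0.51, SE 0.11, adjusted p = 0.0167). The KO range began just above the WT range, at replicate 5. Vegfa (ENSMUSG00000023951, chr17:46016993-46032369), the main growth factor for endothelium, was lower, at 74.1, 69.5, 56.6, 63.3 and 56.3 CPM in WT and 47.1, 34.2, 43.8, 53 and 44.4 CPM in KO mice. All KO values lay below all WT values, with means of 64 ± 7.85 and 44.5 ± 6.82 CPM (SD, n = 5; log2 fold change -0.52, SE 0.10, adjusted p = 0.0145). Its receptors Kdr (-0.42, adjusted p = 0.159) and Flt1 (-0.02, adjusted p = 0.932) and the tight junction gene Cldn5 (-0.18, adjusted p = 0.362) were not called. Endothelial markers summed to 1158 to 1336 CPM in WT and 1218 to 1515 CPM in KO mice, and pericyte markers to 303 to 354 and 360 to 406 CPM with no overlap, and their part was not tested. Of 47 meningeal fibroblast, collagen and matrix genes, edgeR and DESeq2 both called 0, and 5 were higher at an unadjusted p under 0.05. Notch3 was not called without WT replicate 7 (adjusted p of 0.0594).

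TGF-beta, BMP, Notch and Wnt pathway genes gave 3 DEGs of 51 (5.88%), all higher, while the median of the list was 0.04 and turned to -0.0042 with library size alone. Besides Notch3, they were Ltbp4, which holds latent TGF-beta in the matrix (log2 change 0.36, SE 0.08, adjusted p = 0.0307), and Tgfbr2, the type II TGF-beta receptor (log2 change 0.39, SE 0.10, adjusted p = 0.0478), both higher in every KO mouse than in any WT mouse. Apcdd1, a membrane inhibitor of Wnt signalling that is on none of the lists, was at 26.6, 26.5, 25.1, 29.9 and 24.2 CPM in WT and 32, 39.3, 38.1, 33.3 and 39.2 CPM in KO mice (log2 fold change 0.46, SE 0.07, adjusted p = 0.00177), with no overlap. Adamts2 (ENSMUSG00000036545, chr11:50602084-50807573), which trims procollagens, was lower, at 13.1, 17.3, 12.2, 12.3 and 13.5 CPM in WT and 9.42, 7.83, 10.2, 10.9 and 10.6 CPM in KO mice (log2 fold change -0.48, SE 0.10, adjusted p = 0.0139), with an adjusted p of 0.092 on the 10 Tg-SwDI libraries alone and of 0.05, which is not under the threshold, without both libraries low in choroid plexus markers. The list count was 1 without WT replicate 5 or KO replicate 8 and 0 without WT replicate 7. Ltbp4 was not called when any single one of WT replicates 4, 5 and 7 and KO replicate 8 was left out (adjusted p of 0.0584 to 0.0905). Tgfbr2 was not called when any single one of WT replicates 3, 4, 5 and 7, KO replicates 1, 2, 3 and 8, WT Non-Tg replicate 4 and KO Non-Tg replicates 4 and 8 was left out (adjusted p of 0.0529 to 0.113).

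Neuronal lists held few DEGs. Of 36 glutamate and GABA receptor subunits, 3 were called, all lower (8.33%, against 0.503% lower over all genes), and the list median was -0.05. Grin2a (ENSMUSG00000059003, chr16:9567898-9995560), a subunit of NMDA receptors, was at 318, 308, 324, 327 and 356 CPM in WT and 265, 326, 257, 259 and 277 CPM in KO mice (log2 fold change -0.24, SE 0.06, adjusted p = 0.0266). KO replicate 2 was within the WT range and the other 4 KO mice were below it. Grm5 (ENSMUSG00000049583, chr7:87584168-88134907), a metabotropic glutamate receptor, showed the same arrangement, at 306, 296, 307, 299 and 329 CPM in WT and 250.1, 307, 261, 273 and 224 CPM in KO mice (log2 fold change -0.23, SE 0.06, adjusted p = 0.0468). Gabra2, the alpha2 subunit of GABA-A receptors, was at 73, 71.6, 86.3, 68.7 and 69.6 CPM in WT and 68.8, 58.5, 57.8, 56.9 and 65.7 CPM in KO mice (log2 fold change -0.26, SE 0.06, adjusted p = 0.0361), with KO replicate 1 just inside the WT range. After the same correction for GC content and length, Grm5 and Gabra2 had adjusted p-values of 0.102 and 0.302. Of 39 presynaptic release genes, 34 postsynaptic scaffold genes, 26 immediate early genes and 29 hippocampal field markers, edgeR called 0 in each, DESeq2 1, 1, 2 and 0, and an unadjusted p under 0.05 was seen in 8, 9, 7 and 1. Over all genes tested that share was 18.9%. The receptor count was 1 without WT replicate 3 or 6 and 0 without WT replicate 5, WT replicate 7, KO replicate 3 or KO replicate 5. Grin2a was not called when any single one of WT replicates 5, 6 and 7 and KO replicates 3 and 5 was left out (adjusted p of 0.051 to 0.0926). Grm5 was not called when any single one of WT replicates 3, 4, 5, 6 and 7, KO replicates 1, 3, 5 and 8, WT Non-Tg replicates 3, 4, 6 and 7 and KO Non-Tg replicates 1, 2, 4, 7 and 8 was left out (adjusted p of 0.0501 to 0.133). Gabra2 was not called when any single one of WT replicates 3, 5 and 7 and KO replicates 2, 3 and 5 was left out (adjusted p of 0.0502 to 0.105).

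Single neuronal genes stood out from these lists. Thy1, a neuronal surface protein whose promoter also drives the transgene, was at 2178 ± 163 CPM in WT and 2821 ± 315 CPM in KO Tg-SwDI mice (SD, n = 5; log2 change 0.37, SE 0.06, adjusted p = 0.00416) and at 725 ± 30.04 and 722 ± 23.5 CPM in Non-Tg mice. KO replicate 8 was the highest for Thy1 and also had the highest sum of the 16 neuron markers, 19130 CPM against 14050 to 16160 CPM in the other 9 libraries, which was not tested as a source of the difference. Transgene copies and reads from the transgene's Thy1 sequence cannot be told apart from the endogenous gene here. Scg3, a granin of secretory vesicles, was at 257 to 292 CPM in WT and 308 to 327 CPM in KO mice (log2 change 0.19, SE 0.05, adjusted p = 0.0307). Kcnh3, a potassium channel of forebrain neurons (log2 change 0.21, SE 0.05, adjusted p = 0.0342), and Hcn3, a pacemaker channel (log2 change 0.36, SE 0.08, adjusted p = 0.0166), were higher, and 1 of 51 channel genes on the list, Kcnh3, was called (1.96%). That count was 5 without KO replicate 2, 2 without KO replicate 1 and 0 without WT replicate 4, 5, 6 or 7 or KO replicate 3 or 5. Cspg5, a brain proteoglycan, was at 250.1 to 278 CPM in WT and 280.1 to 341 CPM in KO mice (log2 change 0.20, SE 0.05, adjusted p = 0.0496). It is on the list of oligodendrocyte precursor markers, where it was the 1 gene called of 12 tested (8.33%). Olfm3, a secreted olfactomedin protein of neurons, was lower, at 29.5, 29.5, 31.5, 29.1 and 32.6 CPM in WT and 26.2, 22.6, 24.3, 27.2 and 21.8 CPM in KO mice (log2 fold change -0.32, SE 0.07, adjusted p = 0.0212), with no overlap. Scg3 was not called when any single one of WT replicates 3 and 5 and KO replicate 3 was left out (adjusted p of 0.0551 to 0.0921). Kcnh3 was not called when any single one of WT replicates 4, 5, 6 and 7 and KO replicates 3 and 5 was left out (adjusted p of 0.0506 to 0.0849). Cspg5 was not called when any single one of WT replicates 3, 4, 5, 6 and 7, KO replicates 3, 5 and 8, WT Non-Tg replicates 3, 4, 6 and 7 and KO Non-Tg replicates 2, 4, 7 and 8 was left out (adjusted p of 0.0501 to 0.118). Olfm3 was not called when any single one of WT replicates 5 and 7 was left out (adjusted p of 0.0546 to 0.0747). After correction for GC content and length, the adjusted p was 0.141 for Kcnh3 and 0.125 for Olfm3.

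Some ribosomal protein genes were higher, by small amounts. Of 81 cytosolic ribosomal protein genes, 9 were called, all higher (11.1%), although 0 were called by edgeR on the 10 Tg-SwDI libraries alone, and 70 lay above 0, with a median of 0.10 in Tg-SwDI mice against -0.03 in Non-Tg mice. Rpl21 (ENSMUSG00000041453, chr5:146832890-146837032), a protein of the large subunit, was at 266, 303, 273, 252.4 and 287 CPM in WT and 320.5, 309.8, 340.5, 346 and 361 CPM in KO mice (log2 fold change 0.28, SE 0.05, adjusted p = 0.00677), with no overlap. Rps26 (log2 change 0.42, SE 0.09, adjusted p = 0.0145) and Rpl29 (log2 change 0.29, SE 0.06, adjusted p = 0.0144) were also higher in every KO mouse, with replicate 8 the highest for both, whereas Rpl38 (log2 change 0.34, SE 0.07, adjusted p = 0.0106) overlapped at KO replicate 2. Rps27 (0.40), Rpl23a (0.37), Rpl31 (0.34) and Rpl17 (0.20) were also called. These genes have many processed copies in the genome, and the treatment of reads that match several places is not given in the sources used here, so their values are uncertain. Of 13 respiratory chain genes of the mitochondrial genome, mt-Nd3, a complex I subunit, was called (log2 change 0.31, SE 0.07, adjusted p = 0.0256) and the median was 0.33. The level of mt-Nd3 was 48.4, 48.8, 49.8, 51.7 and 44.8 CPM in WT and 56.3, 69.1, 68.4, 58.3 and 50.3 CPM in KO mice. KO replicate 8, which had the highest mitochondrial share of counts, lay within the WT range for this gene. Of 74 nuclear respiratory chain genes, 1 was called (1.35%): Cox6a1, a subunit of cytochrome c oxidase, at 206 to 237 CPM in WT and 229 to 314 CPM in KO mice (log2 change 0.27, SE 0.06, adjusted p = 0.0253), with an adjusted p of 0.104 after correction for GC content and length. That count was 9 without KO replicate 2, 2 without KO replicate 1 and 0 without WT replicate 3, 5, 6 or 7 or KO replicate 5. The count of mitochondrially encoded genes was 3 without KO replicate 1, 2 without KO replicate 2 or 8 and 0 without WT replicate 3, 5 or 7 or KO replicate 3. The part of the mitochondrial share of counts in these results was not tested. The count of ribosomal protein genes was 4 without WT replicate 3, 5 without WT replicate 6, 3 without WT replicate 7 and 16 without WT replicate 4. Rpl29 had an adjusted p of 0.0546 after correction for GC content and length. Rps26 was not called without WT replicate 7 (adjusted p of 0.0584). mt-Nd3 was not called when any single one of WT replicates 3, 5 and 7 and KO replicate 3 was left out (adjusted p of 0.051 to 0.0821). Cox6a1 was not called when any single one of WT replicates 3, 5, 6 and 7 and KO replicate 5 was left out (adjusted p of 0.051 to 0.0758).

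Heat shock and cholesterol genes gave few calls. Of 33 genes of the unfolded protein, heat shock and integrated stress responses, 2 were called, both lower (6.06%), and edgeR called 0 without both libraries low in choroid plexus markers or after correction for GC content and length. Hsp90aa1, the inducible cytosolic HSP90, was at 874, 965, 991, 921 and 1023 CPM in WT and 829, 876, 834, 825 and 787 CPM in KO mice (log2 fold change -0.20, SE 0.05, adjusted p = 0.037), and Hsph1, a co-chaperone of HSP70, was at 243 to 302 and 219 to 264 CPM (log2 change -0.23, SE 0.06, adjusted p = 0.0411). For both the groups overlapped, and after that correction their adjusted p-values were 0.0677 for Hsp90aa1 and 0.11 for Hsph1. The list count was 0 without WT replicate 4, WT replicate 5 or KO replicate 8, 1 without WT replicate 6 or 7 or KO replicate 1, 2 or 5, and 4 without KO replicate 3. Of 25 cholesterol synthesis and uptake genes, 1 was called (4.0%) but 23 lay above 0, 11 at an unadjusted p under 0.05, with a median of 0.16. The count was 5 by DESeq2, 4 after correction for GC content and length, 2 without both libraries low in choroid plexus markers, 5 without KO replicate 1 or 2, and 0 without WT replicate 3, 5, 6 or 7 or KO replicate 3. The called gene was Dhcr7, which makes cholesterol from its last precursor, at 31.8, 38.8, 35.3, 35.8 and 37.9 CPM in WT and 37.6, 40.1, 50.4, 43.1 and 57.9 CPM in KO mice (log2 fold change 0.35, SE 0.09, adjusted p = 0.0352). Sqle (0.23, adjusted p = 0.0577), Msmo1 (0.23, adjusted p = 0.08) and Nsdhl (0.28, adjusted p = 0.0797), other enzymes of the pathway, did not pass. Of 33 glial lipid handling genes, 20 iron and metallothionein genes and 40 p53 pathway, cell cycle and replication genes, edgeR called 0 in each, DESeq2 1, 4 and 2, and an unadjusted p under 0.05 was seen in 7, 5 and 6, against 18.9% of all genes. Hsp90aa1 was not called when any single one of WT replicates 4, 5 and 7 and KO replicates 3, 5 and 8 was left out (adjusted p of 0.0531 to 0.109). Hsph1 was not called when any single one of WT replicates 4, 5, 6 and 7, KO replicates 1, 2 and 8, WT Non-Tg replicate 4 and KO Non-Tg replicates 1, 4, 7 and 8 was left out (adjusted p of 0.0501 to 0.119). Dhcr7 was not called when any single one of WT replicates 3, 5, 6 and 7 and KO replicates 3 and 8 was left out (adjusted p of 0.0584 to 0.1).

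Outside the lists, the higher DEGs with the smallest adjusted p and no overlap included Vat1, Gpx1, Gnai2 and Drap1. Vat1 (ENSMUSG00000034993, chr11:101458745-101466230), a membrane-associated oxidoreductase first found on synaptic vesicles, was at 35.6, 38.1, 37.1, 41.2 and 35.5 CPM in WT and 51.4, 50.1, 50.3, 52.2 and 58.8 CPM in KO mice (log2 fold change 0.49, SE 0.07, adjusted p = 0.00159). Gpx1 (ENSMUSG00000063856, chr9:108338903-108340343), the cytosolic glutathione peroxidase, was at 38.7, 44.4, 40.7, 39.7 and 36.8 CPM in WT and 50.6, 48.9, 55.3, 48.4 and 50.3 CPM in KO mice (log2 fold change 0.34, SE 0.05, adjusted p = 0.00287). Gnai2 (ENSMUSG00000032562, chr9:107614125-107635367), an inhibitory G protein subunit through which chemokine receptors signal, was at 229.5, 246, 228, 243 and 245 CPM in WT and 286, 283, 303, 300.1 and 372 CPM in KO mice (log2 fold change 0.37, SE 0.06, adjusted p = 0.00287). These 3 genes kept their call with each Tg-SwDI library left out and did not overlap between the groups. Drap1, a transcriptional corepressor, was at 108 to 124 CPM in WT and 131 to 146 CPM in KO mice (log2 change 0.26, SE 0.04, adjusted p = 0.00416). Ip6k3, an inositol phosphate kinase (log2 change 0.88, SE 0.19, adjusted p = 0.0167), and Tmem252, a membrane protein (log2 change 0.83, SE 0.20, adjusted p = 0.0289), were among the larger changes at low levels, under 5 CPM in all 10 libraries. Ip6k3 was not called without WT replicate 7 (adjusted p of 0.0546). Tmem252 was not called when any single one of WT replicates 5, 6 and 7 and KO replicates 3 and 5 was left out (adjusted p of 0.0646 to 0.0783).

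The lower DEGs outside the lists had varied functions and small changes. Rbm28 (ENSMUSG00000029701, chr6:29123576-29165006), a nucleolar protein of ribosome assembly, had the smallest adjusted p among them, at 42.6, 42.8, 42.9, 42.7 and 41.9 CPM in WT and 35.9, 33.6, 35.7, 32.6 and 34.9 CPM in KO mice (log2 fold change -0.30, SE 0.05, adjusted p = 0.00301). The WT mice lay close together and all KO mice lay below them. In Non-Tg mice the means of Rbm28 were 40.02 ± 1.45 in WT and 34.6 ± 2.23 CPM in KO (SD, n = 5; log2 fold change -0.21, adjusted p = 0.412), and the difference between the 2 KO effects did not pass the test (adjusted p = 0.503). Cbs (ENSMUSG00000024039, chr17:31608894-31637238), which converts homocysteine to cystathionine, was at 30.6, 30.5, 27.1, 31.3 and 28.7 CPM in WT and 24, 23.9, 23.9, 24.4 and 23.5 CPM in KO mice (log2 fold change -0.31, SE 0.06, adjusted p = 0.00635). Myef2 (ENSMUSG00000027201, chr2:125084628-125123661), a repressor of the myelin basic protein gene, was at 54.8, 50.6, 50.5, 51.2 and 49.7 CPM in WT and 45.5, 42.7, 40.9, 38.8 and 38.8 CPM in KO mice (log2 fold change -0.31, SE 0.06, adjusted p = 0.00654). Neither gene overlapped between the groups. Rmnd5a (ENSMUSG00000002222, chr6:71388634-71440637), a ubiquitin ligase subunit, was at 126, 125, 122, 124 and 132 CPM in WT and 113, 116, 104, 97.7 and 92.1 CPM in KO mice (log2 fold change -0.27, SE 0.05, adjusted p = 0.0106). Usp33, a deubiquitinase (log2 change -0.26, SE 0.05, adjusted p = 0.00701), Mgea5, which removes O-linked N-acetylglucosamine from proteins (log2 change -0.24, SE 0.05, adjusted p = 0.00922), Ddhd2, a triglyceride lipase of neurons (log2 change -0.27, SE 0.05, adjusted p = 0.0106), Tax1bp1, an autophagy receptor (log2 change -0.20, SE 0.04, adjusted p = 0.0106), and Mical2, an actin-oxidizing enzyme (log2 change -0.21, SE 0.04, adjusted p = 0.0113), fell in the same way. All of these genes kept their call with each Tg-SwDI library left out. With the 10 Tg-SwDI libraries alone, however, Rmnd5a, Usp33, Mgea5, Ddhd2, Tax1bp1 and Mical2 had adjusted p-values of 0.088, 0.0734, 0.0842, 0.0902, 0.0939 and 0.0934, and Tax1bp1 had one of 0.216 after correction for GC content and length. Lman2l, which carries glycoproteins out of the endoplasmic reticulum (log2 change -0.26, SE 0.06, adjusted p = 0.0174), and Gm43951, a gene of unknown function with the largest fall of the lower DEGs (log2 change -0.65, SE 0.16, adjusted p = 0.0401), did not overlap between the groups. Lman2l was not called when any single one of WT replicates 5 and 7 was left out (adjusted p of 0.051 to 0.0675). Gm43951 was not called when any single one of WT replicates 3, 5, 6 and 7 and KO replicates 3 and 8 was left out (adjusted p of 0.051 to 0.115).

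Higher and lower DEGs on neither list differed in composition. The 184 higher genes had a median GC content of 54.6% and a median exonic length of 3088 bases, the 81 lower genes 45.4% and 7286 bases, and all genes tested 50.1% and 4270 bases. Over 16081 genes with a value, the log2 fold change had a Spearman correlation of 0.33 with GC content and -0.19 with length, a description across genes of the same 10 libraries, which are not independent. Fitted again after correcting each library for its trends on both, 143 of the 239 higher and 25 of the 81 lower genes were also called.

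Over all lists, 24 of 42 held at least 1 DEG. In 21 of these the DEGs were higher alone, in 2 lower alone (receptor subunits and stress response genes) and in 1 both (serpins and proteases), and the median log2 fold change was above 0 in 37 of the 42, of which 8 turned below 0 with library size alone. Oligodendrocyte and myelin genes (28 tested, median 0.05), choroid plexus (18), ependymal (11), striatal (11), thalamic (12) and neocortical (11) markers had 0 DEGs by edgeR and by DESeq2, with an unadjusted p under 0.05 in 4, 0, 1, 0, 1 and 2 of them. The large difference of the choroid plexus list in Non-Tg mice, a median of -2.42, went with sums of 275 to 740.2 CPM in KO and 311 to 6988 CPM in WT Non-Tg mice.

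**Figure D4:**
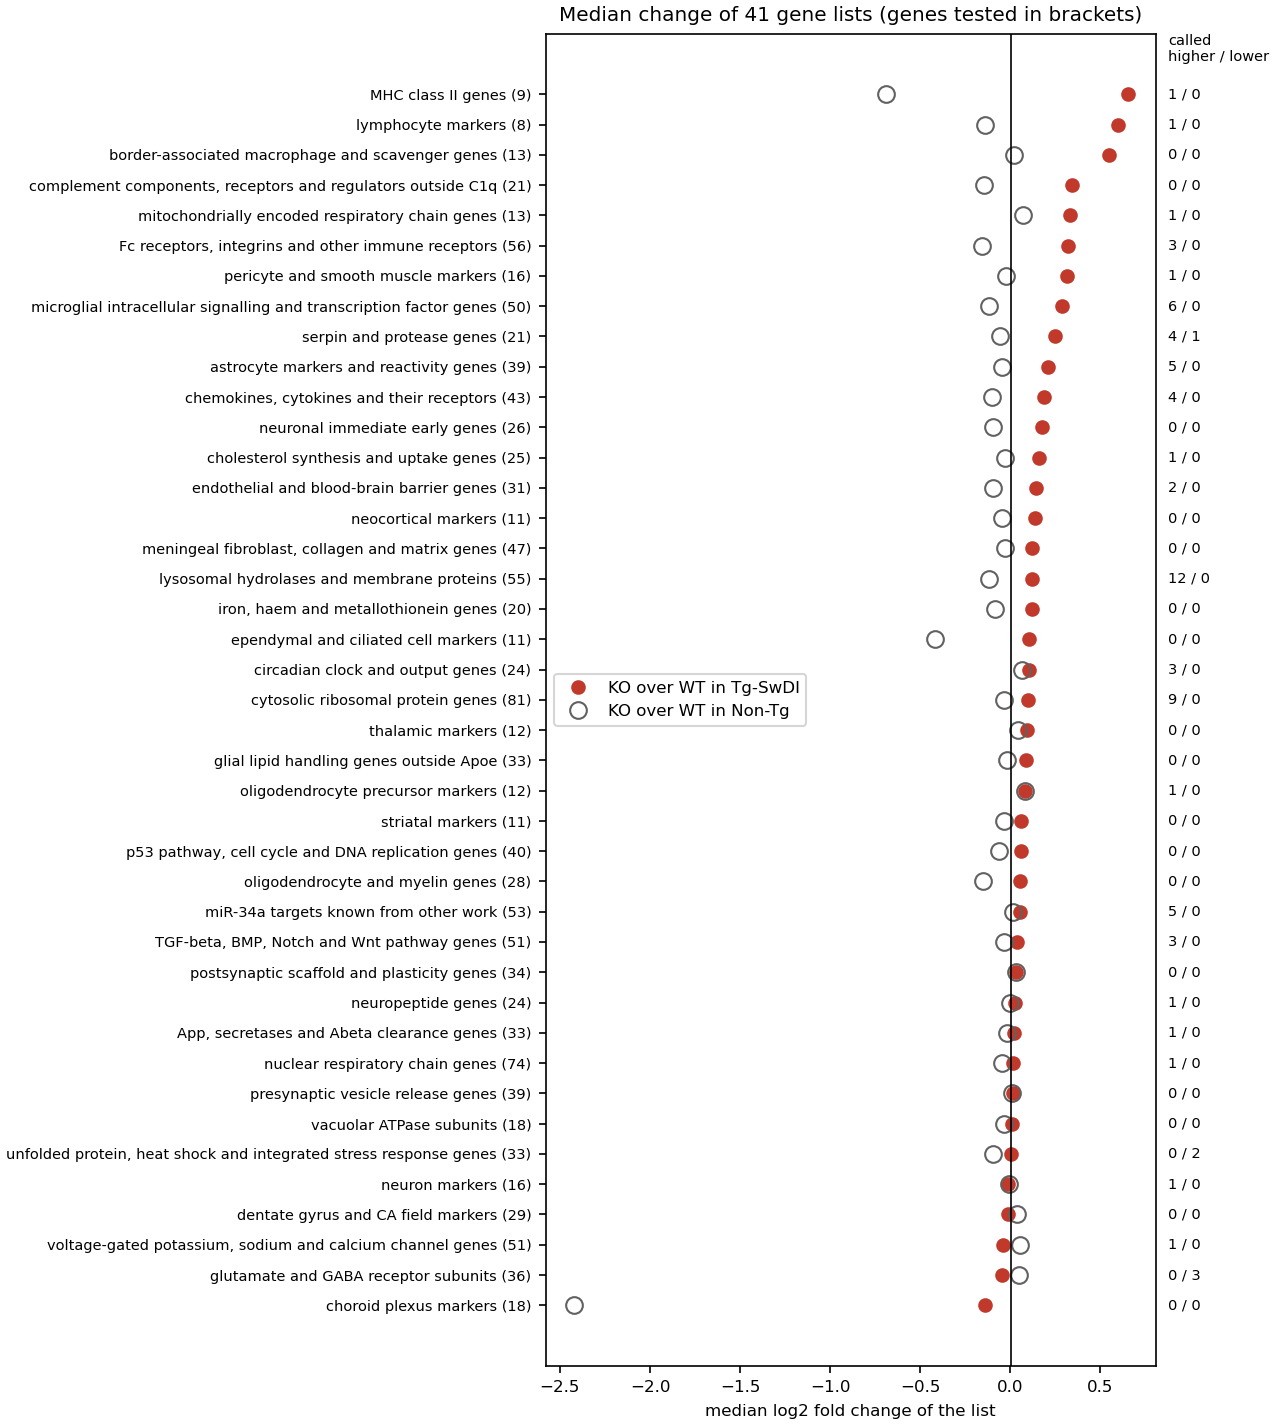
Median log2 fold change of KO over WT for 41 gene lists, on the x axis, in Tg-SwDI (filled red) and Non-Tg mice (open circles), with the number of genes tested in brackets and the higher and lower DEGs of Tg-SwDI mice at the right. A list of 4 blood cell markers is not drawn, immune, vascular and lysosomal lists lie above 0 in Tg-SwDI, and the receptor subunit list lies at -0.05.

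Genes with and without a miR-34a site were compared, since direct targets lose a repressor in KO mice. Of 14698 tested genes with an annotated 3'UTR, 859 (5.84%) held the 8-base site CACTGCCA, 1605 only the match to bases 2 to 8, and 892 only the match to bases 2 to 7 followed by an A. The genes with the 8-base site gave 15 higher and 5 lower DEGs (2.33%), and the 11342 genes without any of these sites gave 187 higher and 61 lower (2.19%). In Tg-SwDI mice, median log2 fold changes were -0.0017 with the 8-base site, 0.0014 and -0.019 with the shorter ones and 0.0049 without a site. In Non-Tg mice the same medians were 0.025, 0.014, 0.021 and -0.0095, so each class with a site lay above the genes without one. Genes with a site had longer 3'UTRs, with medians of 2327, 2175 and 2225 bases against 882, and the part of length was not tested. Differences between the classes were not tested either. The 8-base site was found in 6.44% of the higher and 6.25% of the lower DEGs with a 3'UTR, both near the 5.84% of all genes. Besides Vat1, S1pr3 and Hcn3, the higher genes with the site included Serpinf2, Rras, Axl, on the DAM list, and Myo1e, an actin motor (log2 change 0.27, SE 0.07, adjusted p = 0.0449), whose groups did not overlap. A site of these letters is a description and does not show pairing in the tissue, and isoforms other than 1 per gene were not searched. Myo1e was not called when any single one of WT replicates 3, 4, 5, 6 and 7, KO replicates 1, 2 and 8, WT Non-Tg replicate 4 and KO Non-Tg replicates 4 and 8 was left out (adjusted p of 0.051 to 0.115).

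**Figure D5:**
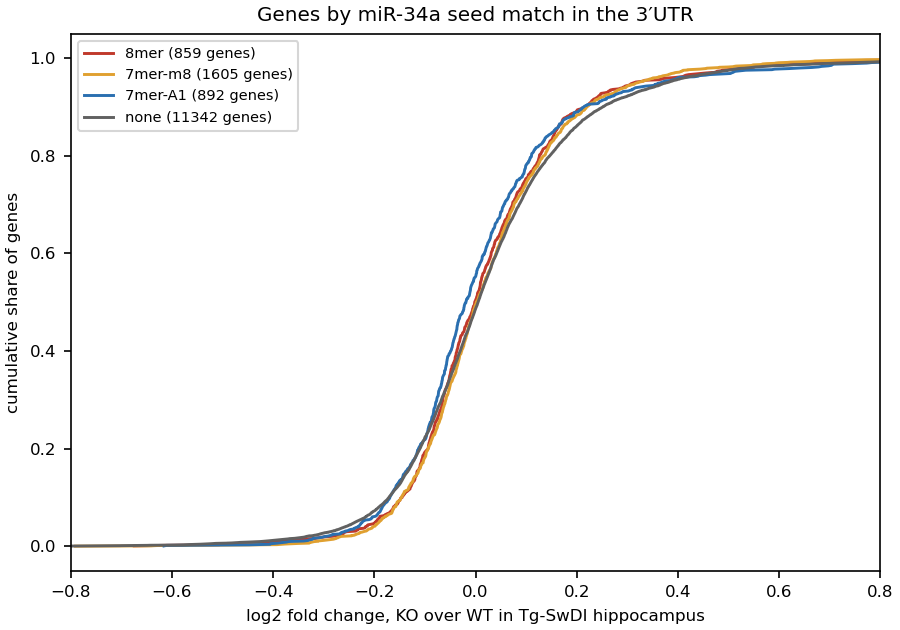
Cumulative share of genes (y axis) by log2 fold change of KO over WT in Tg-SwDI hippocampus (x axis), for genes grouped by the best miR-34a site in the annotated 3'UTR. The curves lie on each other, with medians from -0.019 to 0.0049.

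Of 53 miR-34a targets known from other work, 5 were called, all higher (9.43%), and the median was 0.05. They were Cd44, Csf1r (log2 fold change 0.56), Trem2 (0.48), Axl (0.48) and Rras, a small GTPase (0.42). Csf1r, Trem2 and Axl are also genes on which the study based its account, so they are not independent of it. Targets best known from tumours and neurons, such as Sirt1 (-0.10), Bcl2 (0.12), Notch1 (0.07), Cdk6 (0.06), Met (0.25) and Syt1 (-0.08), did not pass, with adjusted p-values of 0.403, 0.415, 0.623, 0.851, 0.344 and 0.447.

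Genes next to Mir34a (chr4:150068454-150068555) were looked at because a deletion, or DNA from the strain in which it was made, can alter its neighbours. Of 5 tested genes within 200 kb none passed, with log2 fold changes of -0.01 for Gpr157, the nearest (adjusted p = 0.982), -0.20 for H6pd (adjusted p = 0.249) and 0.19 for Spsb1 (adjusted p = 0.223). Within 5 Mb, 1 of 103 tested genes was called, Fbxo6 (ENSMUSG00000055401, chr4:148145716-148152140), a ubiquitin ligase subunit that binds glycoproteins, at 15 to 18 CPM in WT and 18.6 to 25.5 CPM in KO mice (log2 change 0.32, SE 0.08, adjusted p = 0.0354). Fbxo6 was not called when any single one of WT replicates 3, 5, 6 and 7 and KO replicate 8 was left out (adjusted p of 0.0652 to 0.101). Its adjusted p was 0.0867 after correction for GC content and length and 0.0611 with library size alone.

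App, the mouse gene of the amyloid precursor, was not called, and 1 of its processing genes was. App was at 1778, 1765, 1836, 1958 and 1896 CPM in WT and 1754, 1918, 1898, 1894 and 1530 CPM in KO mice (log2 fold change -0.04, SE 0.05, adjusted p = 0.752), with overlapping groups, and whether reads of the human transgene were counted on it is not given. Of 33 genes of App processing and Abeta clearance, 1 was called (3.03%), Psenen, a gamma-secretase subunit, at 23.4, 25.1, 25.1, 23.7 and 25.6 CPM in WT and 28.2, 25.9, 30.3, 31.1 and 31.3 CPM in KO mice (log2 fold change 0.26, SE 0.06, adjusted p = 0.0409). Bace1 (-0.09), Ide (-0.38) and Mme (-0.30) did not pass, with adjusted p-values of 0.27, 0.431 and 0.151. The adjusted p of Psenen was 0.0916 after correction for GC content and length, 0.092 with library size alone and 0.123 with the 10 Tg-SwDI libraries alone. Psenen was not called when any single one of WT replicates 3, 4, 5, 6 and 7, KO replicates 3, 5 and 8 and KO Non-Tg replicates 4 and 8 was left out (adjusted p of 0.0512 to 0.101).

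The KO effect in Tg-SwDI mice was set against that in Non-Tg mice by an interaction term. In Non-Tg mice 0 genes passed edgeR's quasi-likelihood test (0%), with 1302 (8.08%) at an unadjusted p under 0.05, against 3052 (18.9%) in Tg-SwDI mice, and DESeq2 called 7. The study, which also ran edgeR's exactTest on pairs of groups, did report DEGs for this Non-Tg comparison. The interaction passed for 98 genes (0.608%), with 2821 (17.5%) at an unadjusted p under 0.05. That count was 46 without WT replicate 3, 64 without WT replicate 5 or KO replicate 3, 31 without WT replicate 7, 151 without KO replicate 1, 500 without KO replicate 2 and 209 without KO replicate 8. Among the Non-Tg WT mice it was 26 on omitting replicate 2, 170 on omitting replicate 3 and 36 on omitting replicate 4, and among the Non-Tg KO mice 43 for replicate 4, 14 for replicate 7 and 51 for replicate 8. Of the 320 DEGs, 70 passed it, 54 of them higher and 16 lower, and 54 (38 higher, 16 lower) were on neither list. The higher DEGs on neither list had a median log2 fold change of -0.04 in Non-Tg mice and the lower ones of 0.03. Both contrasts are fitted with 1 estimate of the spread, and the interaction uses the same Tg-SwDI libraries that chose the DEGs, so these counts are not separate evidence. Choroid plexus markers summed to 275 to 740.2 CPM in KO and 311 to 6988 CPM in WT Non-Tg mice, with medians of 400.5 and 3098. Choroid plexus content and genotype cannot be fully told apart in that comparison. With the choroid plexus covariate the interaction count was 32, and the part of this content in single genes was not tested. Grn was at 62.1 ± 3.96 CPM in WT and 58.3 ± 4.18 CPM in KO Non-Tg mice (SD, n = 5), with an interaction of 0.63, SE 0.09, adjusted p = 0.00861. Among the lower genes, Myef2 had means of 47.1 ± 2.97 and 51.7 ± 3.57 CPM in Non-Tg mice (SD, n = 5) and an interaction of -0.45, SE 0.08, adjusted p = 0.0156.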

How the data were processed

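Left hippocampus of 20 female mice, 5 in each of 4 groups, was profiled by stranded mRNA sequencing of oligo(dT)-selected RNA on a DNBSEQ platform. The authors aligned the reads to mm10 with STAR and counted them per Ensembl gene with featureCounts, and the deposited values are raw read counts. Tool versions, the strand setting and the treatment of multi-mapping reads are not given in the sources used here. Library totals were 19549622 to 21066868.

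Genes were kept with edgeR's filterByExpr (minimum count 10, total 15), which left 16107 of 39056, and 99.5% of the table's genes were matched to GENCODE M21. One edgeR 4.0.16 fit (R 4.3.3, TMM factors, 4 group means, 16 residual degrees of freedom, robust quasi-likelihood test) gave the KO against WT contrast for Tg-SwDI mice, that for Non-Tg mice and their difference, with Benjamini-Hochberg adjustment over all genes at 0.05. The study used the same tool with a two-factor model and also compared pairs of groups with its exactTest. The exactTest alternative here covered the Tg-SwDI contrast only. CPM are TMM-scaled, and mean ± SD is over 5 mice. The fit was tested on simulated data for the Tg-SwDI contrast. It recovered 88% of a set of 100 genes given a log2 difference of 1. For a set given 0.5 it recovered 62%, so a gene or list without a call can still differ. It also called 6 unaltered genes, and 0 genes when no difference was put in. MiR-34a sites were searched on the gene's strand in the 3'UTR of 1 GENCODE transcript per gene.

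Named genes were the DEGs of smallest adjusted p and largest fold change without overlap and outside the interferon and DAM lists, up to 4 DEGs per list and direction, genes near Mir34a, DEGs of smallest interaction p and those with an 8-base site. Uncalled genes named for their known role, and Msmo1, Nsdhl and others set beside a DEG, were chosen after their values were seen. A few genes that the rule names are not reported here. The gene lists and the choice of contrast were made with earlier results of these data known. Alternatives were DESeq2 1.42.0, edgeR's exactTest, other filters and scalings, the Tg-SwDI libraries alone, a replicate block, removal of GC content and length trends, a choroid plexus covariate and leaving out libraries. The fit without both libraries low in choroid plexus markers, and the leaving out of Non-Tg libraries for the DEG counts, were added after the data were seen.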

Additional observations from a re-analysis of the deposited data

Results flagged for a closer look

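Of 198 group values examined for a sample far from the other 4 of its group, by Dixon's test, 22 stood out, where chance gives about 1 in 20. KO replicate 8 gave 10 of them: CPM of 116.46 for Cd68, 25.494 for Fbxo6, 371.73 for Gnai2, 43.555 for Rela, 173.89 for Rpl29, 149.5 for Serpini1, 106.88 for Usp33 and 58.752 for Vat1, and shares of 14.563% on mitochondrial genes and 17.987% on the 20 highest genes. For the higher genes among these, the other 4 KO mice also lay above all WT mice, and for Serpini1 and Usp33 they lay below them. Among the other KO mice, replicate 2 was at 325.67 CPM for Grin2a, replicate 5 at 16.152 CPM for Notch3 and at 139.2 CPM for the lymphocyte markers, and replicate 3 at 11.549 CPM for Serpinf2. Among WT mice, replicate 3 was at 162.48 CPM for Csf1r, replicate 4 at 17.313 CPM for Adamts2, replicate 5 at 86.35 CPM for Gabra2 and 101.7 CPM for the lymphocyte markers, and replicate 6 at 290.4 CPM for the thalamic markers. WT replicate 7 was at 41.904 CPM for Rbm28, 12.007 CPM for Srgn and 409.2 CPM for the choroid plexus markers.

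For 27 of the 79 named genes the KO effect differed between Tg-SwDI and Non-Tg mice by the interaction test (edgeR, adjusted p under 0.05). Over all genes tested, 98 (0.608%) passed it. Some of the 79 were named for their small interaction p, so these shares cannot be compared. The difference of the log2 fold changes, Tg-SwDI minus Non-Tg, was above 0 for 19 of the 27. Genes on the microglial, immune and lysosomal lists among these were H2-Oa (1.68), Cd68 (0.967), Fcer1g (0.925), Tgfb1 (0.801), Trem2 (0.781), Cd37 (0.748), Dock2 (0.681), Grn (0.626), Csf1r (0.556), Rela (0.554), Man2b1 (0.527), Ctsb (0.38) and Ctsa (0.321). Cd44 (0.745), Ciart (0.704), Myo1e (0.573), Gpx1 (0.458), Gnai2 (0.414) and Psenen (0.392) were the others. It was below 0 for Olfm3 (-0.462), Myef2 (-0.45), Grin2a (-0.41), Grm5 (-0.38), Rmnd5a (-0.359), Ddhd2 (-0.351), Usp33 (-0.295) and Mgea5 (-0.285). These genes were DEGs of the Tg-SwDI contrast, which the interaction shares. The interaction count over all genes was 14 to 500 with 1 library left out and 32 with the choroid plexus covariate.

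Gm13067, a long intergenic RNA gene that lies 11478 bases from Mir34a (chr4:150049013-150056976) and was under the low-count filter, had 3 to 11 counts in each KO Tg-SwDI and 4 to 10 in each KO Non-Tg library, against 0 to 3 and 0 to 1 in WT libraries. The groups differed in the same direction with and without the transgene, with KO and WT meeting at 3 counts in Tg-SwDI mice, and the difference was not tested.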

How the results depend on the processing

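Against 320 DEGs (239 higher, 81 lower), DESeq2 gave 733 (494 higher, 239 lower), the Tg-SwDI libraries alone 58 (55 higher, 3 lower), the GC content and length correction 209 (33 lower), the choroid plexus covariate 571 (390 higher, 181 lower) and the fit without both libraries low in choroid plexus markers 169 (116 higher, 53 lower). Library size alone gave 102 higher and no filter 52 lower. Leaving out 1 library gave 78 to 701 DEGs, 61 to 446 higher and 17 to 255 lower. The interaction count of 98 became 482 with DESeq2, 59 with library size alone, 51 with the GC content and length correction, 32 with the choroid plexus covariate and 176 without both low libraries, and 14 to 500 with 1 library left out. In Non-Tg mice DESeq2 called 7 genes, no filter 1 and the leave-one-out fits 0 to 3, against 0. Lists with a DEG numbered 24, and 12 with the Tg-SwDI libraries alone, 15 without both low libraries and 12 to 31 with 1 library left out.

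Deviations of libraries with the same replicate number correlated from -0.40 to 0.15 over 16 pairs, and those with different numbers from -0.37 to 0.50. Only 2 of the 16 pairs lie within Tg-SwDI mice, so these values cannot decide whether the numbers pair the mice. With the replicate block, 8 DEGs were called (8 higher, 0 lower), 38 genes passed the interaction and 3 lists held a DEG. In that fit 72 of the 76 named DEGs lost their call.

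Of 76 named DEGs 0 changed sign, and 19 were called under every alternative but the block. The log2 fold change of App, which was not called, turned to 0.000795 with the block, 0.0181 with the GC content and length correction and 0.0162 without KO replicate 8, within a leave-one-out range of -0.0578 to 0.0162. With 1 library left out, the KO minus WT difference was 0.774 to 2.39 percentage points for the mitochondrial share, 0.882 to 2.52 for the 20 highest genes, 0.0129 to 0.113 for ribosomal protein genes and -321.8 to -187.2 for genes with a count. The causes of these changes were not tested. The number of mice and the depth limit which small changes at low levels can be called.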
